A study of Mus musculus with 12 samples.

Results

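The proteins of the cytosolic ribosome are encoded by a large gene family whose names begin with Rpl for the large subunit and Rps for the small one. Members were taken from the authors' deposited expression table by name: Rpl or Rps followed by a number, plus Rplp0, Rplp1, Rplp2 and Rpsa, leaving out the S6 kinases and every pseudogene name with -ps. The rule found 91 of the 27013 genes in that table, and 83 of the 91 had an adjusted p. Of the 91, 46 encode core proteins of the large subunit and 31 core proteins of the small subunit. The other 14 are related copies or near names. One of them, Rps19bp1, encodes a protein that binds a ribosomal protein and is not itself part of the ribosome.

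The study asked which transcripts carry N6-methyladenosine (m6A), a methyl mark on adenosines in RNA, and which are bound by YTHDF2, a protein that reads the mark and promotes decay of marked mRNA. It used C57BL/6 mice with a conditional knockout of Ythdf2 (cKO) and wild-type (WT) mice. Bone marrow of both genotypes was cultured for 7 days in 20 ng/ml M-CSF, which yields macrophages, and then given LPS at 100 ng/ml together with interferon gamma at 20 ng/ml for 24 hours, which yields the inflammatory M1 type. There were 12 libraries in 6 groups of 2: m6A immunoprecipitate and input from cKO, the same from WT, and YTHDF2 immunoprecipitate and input from WT. The Cre driver of the conditional knockout, the age and sex of the mice, and whether replicates were separate mice or cultures are not given in the sources used here, so that the spread behind each p-value may be technical.

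Each ribosome holds 1 copy of nearly every ribosomal protein, and a cell makes these proteins in matched amounts. In vertebrates their mRNAs begin at a cytosine followed by a run of pyrimidines, the 5′ terminal oligopyrimidine (TOP) motif, through which mTORC1 and the RNA-binding protein LARP1 set how strongly they are translated. The genes are short, very strongly transcribed, rich in introns that house small nucleolar RNAs (snoRNAs), and have left many processed pseudogenes in mammalian genomes. In macrophages, inflammatory stimulation is known to shift the translation of such mRNAs. Short mRNAs of housekeeping genes tend to carry little m6A.

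All levels and fold changes come from the authors' deposited table, which compares the input libraries of the 2 genotypes. That table gives 1 mean normalized count over its libraries and no value per library, so no spread between libraries can be shown and the depth is unknown. Which genotype stands on top of its ratio was not given in the sources used here. A positive log2 fold change is therefore called the side of Ythdf2, because Ythdf2 itself was at 1.10 ± 0.16 (SE) in the authors' deposited table, with a Benjamini-Hochberg adjusted p of 2.06e-09 from their Wald test. If WT is on top, a negative value means more RNA in cKO cells, and if cKO is on top, less. The macrophage gene Lyz2 had −1.49 ± 0.33 there (adjusted p = 0.00133). The 10 macrophage markers examined were all tested, with a median mean count of 21939.5. The authors' deposited table called 3 of them negative (Lyz2, Mrc1 and Itgam) and 1 positive (Cd68).

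The start of the transcript is shown first, because the TOP motif is what most of the family is known to share. RefSeq start windows (GRCm38.p6, the coordinates of mm10) were found for 67 members. The 30 bases below run 5′ to 3′ along the transcribed strand, 15 before the annotated start and 15 from it on. Capitals mark the longest pyrimidine run that lies near the start. The first 3 have long runs, the next 3 belong to genes named in the results below, and Rpsa shows a window without one.
Rpl7a: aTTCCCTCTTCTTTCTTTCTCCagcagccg
Rpl27a: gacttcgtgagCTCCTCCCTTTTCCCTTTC
Rpl35: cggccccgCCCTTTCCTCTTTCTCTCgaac
Rps24: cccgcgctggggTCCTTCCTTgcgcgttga
Rps27l: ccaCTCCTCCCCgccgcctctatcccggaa
Rps10: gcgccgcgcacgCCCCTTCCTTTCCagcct
Rpsa: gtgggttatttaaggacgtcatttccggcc
These windows lie at chr2:26910792-26910821 for Rpl7a, chr7:109519180-109519209 for Rpl27a, chr2:39005117-39005146 (minus strand) for Rpl35 and chr14:24490663-24490692 for Rps24. Those of Rps27l, Rps10 and Rpsa lie at chr9:66946071-66946100, chr17:27635230-27635259 (minus strand) and chr9:120127751-120127780. The run is 21 bases long in Rpl7a, 18 in Rpl35, 13 in Rps10, and 9 in both Rps24 and Rps27l. In Rpl27a it continues past the printed window to 20 bases. In Rps27l it lies wholly before the annotated start, and so outside the transcript that begins there. The starts shown for Rps27l and Rpl7a lie inside the RefSeq genes, which begin at chr9:66944624 and chr2:26910685.

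A run of at least 6 pyrimidines overlapping the bases from 5 before to 10 after the start was found in 37 of the 67 members (55.2%), against 1024 of 3583 other tested genes with a mean normalized count of at least 1000 (28.6%). Several starts are annotated for some genes, and a gene was counted if any of its windows held the run. No cytosine at the start was asked for, and a run wholly before the start, as in Rps27l and Rpl10a, was counted. The share is therefore not that of members with a TOP motif, and it depends on how exact the annotated starts are. In the longer RefSeq window, 250 bases before to 50 after the start and both strands, TCTCGCGA was found in 16.4% of members and in 2.87% of those other genes. CTCTTTC was found in 26.9% and 9.32%, and CCGGAAGT, a core that ETS factors bind, in 17.9% and 10.8%. TATAAA was found in 11.9% of members and 8.68% of the others. These are matches of letters, not bound sites.

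The ribosomal protein genes lay almost all on the side opposite to Ythdf2, by small amounts. Of the 83 tested members, 81 were below 0 in the authors' deposited table, with a median log2 fold change of −0.26 and a middle 50% from −0.32 to −0.20. Over all 10778 tested genes, 51.3% were below 0 and the median was −0.01. Only 4 members passed an adjusted p of 0.05 on the negative side (4.82%), and the share of all tested genes called on that side was 0.557%. No member passed on the positive side, where 1.76% of tested genes did. At an unadjusted p under 0.05, 44 members (53.0%) were negative and 0 positive, against 3.71% and 6.28% of all tested genes. Since earlier results of these data were known when the family was chosen, these counts describe it and are not an independent test.

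**Figure D1:**
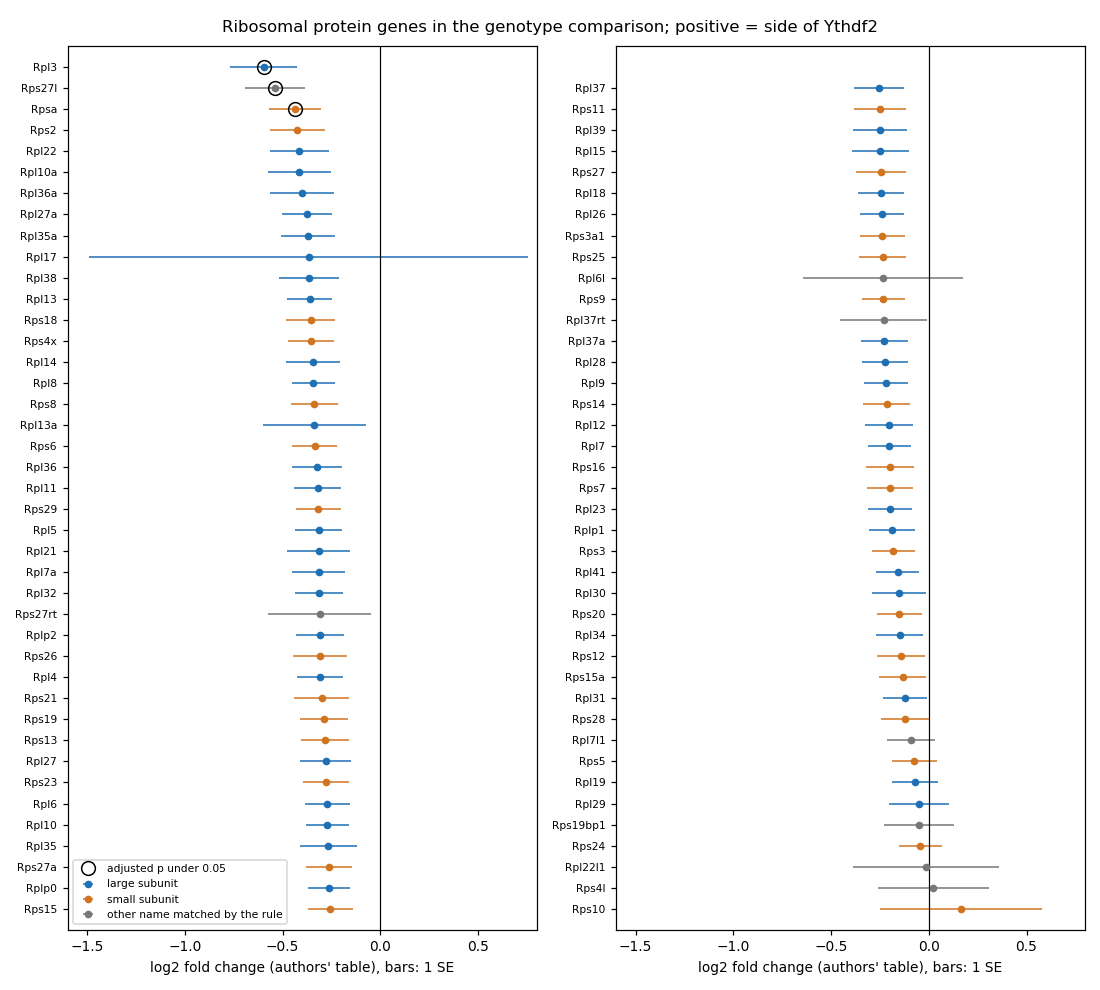
Log2 fold change of 81 tested members in the authors' deposited table (x axis, bars 1 SE), in order of size, with the large subunit in blue, the small subunit in orange and other names in grey. The 3 circled members passed an adjusted p of 0.05, and 79 of the 81 points lie left of 0.

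Other genes of like abundance or length did not lie to that side as a group. The 72 members with a mean normalized count of at least 1000 were all below 0 in the authors' deposited table, from −0.60 to −0.03. The 4424 other tested genes at that level had a median of 0.03, with 42.2% below 0, and the 872 of them that span under 10 kb had a median of 0.02. Among those 72 members the log2 fold change had a Spearman correlation of 0.138 with the mean count and −0.06 with gene span, given as a description across genes of the same libraries. The members' own differences were of the size of their errors: the SD over the 72 was 0.109 and the median SE was 0.121. The values of 57 lay within 1 SE of the members' median, and those of 71 within 2 SE. Genes of the same libraries may share part of their error. These counts are therefore a description and cannot show whether members differ from each other.

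Among the 4 members called were Rpl3, Rps27l and Rpsa. Rpl3 (chr15:80077781-80083406), a large subunit protein close to the peptidyl transferase centre, had a mean count of 3258 and a value of −0.60 ± 0.17 (adjusted p = 0.0251) by the authors' deposited Wald tests. Rps27l (chr9:66944624-66949522), a paralog of Rps27 that is known as a p53 target, was at −0.54 ± 0.15 (adjusted p = 0.0228, mean count 1457). Rpsa (chr9:120127766-120132369), a small subunit protein also described as a laminin receptor, was at −0.44 ± 0.13 (adjusted p = 0.0413, mean count 6543). Rpl3 alone of the 4 differed by at least 1.5-fold. These 3 named genes lost the call when p-values were adjusted over every gene with a p and no filter on low counts, with adjusted p of 0.0618 for Rpl3, 0.0563 for Rps27l and 0.102 for Rpsa.

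The authors' deposited table put these members nearest to the threshold among those that missed it: Rpl8 at −0.34 ± 0.11 (adjusted p = 0.0685), Rpl13 at −0.36 ± 0.12 (adjusted p = 0.0699) and Rps4x at −0.35 ± 0.12 (adjusted p = 0.0828). Rps2, at −0.43 ± 0.14, came next (adjusted p = 0.0834). Their values overlap those of the called members within 1 SE of either, so the threshold does not divide the family into separate groups. At the other end, Rps10 was at 0.16 ± 0.41 and Rps4l at 0.02 ± 0.28, the 2 tested members above 0 in the authors' deposited table. Their mean counts of 62.5 and 211 were low and their errors wide. Rpl22l1 was at −0.01 ± 0.37, also with few counts (85.2). Rps24, at −0.04 ± 0.11, was an abundant member close to 0. It encodes a small subunit protein whose mRNA is known to be spliced in several ways at its 3′ end, and had the highest mean count of all members, 14713.

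The 2 subunits had like values. All 44 tested core genes of the large subunit were below 0 in the authors' deposited table, with a median of −0.27, and 1 was called. Of the 31 of the small subunit, 30 were below 0, with a median of −0.25, and 2 were called. No test of the difference between subunits was made. The P-stalk, which recruits the elongation factors, gave −0.26 ± 0.11 for Rplp0 (adjusted p = 0.278), −0.19 ± 0.12 for Rplp1 and −0.31 ± 0.12 for Rplp2 in the authors' deposited table. None of the 3 passed. Rplp0, often used as a reference gene in quantitative PCR, had a mean count of 13146. Rps9 was slightly more abundant (13298, at −0.23 ± 0.11). After these came Rpl41 (9798, at −0.16 ± 0.11), which encodes a very short and basic peptide, and Rpl4 (9554, at −0.31 ± 0.12). The 4 core genes on chromosome X, Rpl10, Rpl36a, Rpl39 and Rps4x, had a median of −0.31 in the authors' deposited table, and none was called.

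Several members have a paralog or a related copy among the names matched. Some values within such pairs lay apart, but several of the copies had wide errors. Rps27 was at −0.24 ± 0.13 and its copy Rps27rt at −0.31 ± 0.27 in the authors' deposited table, beside Rps27l above. Rpl22 was at −0.42 ± 0.15 (adjusted p = 0.149), whereas Rpl22l1, which RPL22 is known to repress in mice, was near 0 with a wide error. Rpl7 was at −0.20 ± 0.11 and Rpl7l1 at −0.09 ± 0.12. Rps4x on chromosome X was at −0.35 ± 0.12 and Rps4l, which RefSeq calls a transcribed pseudogene, near 0. Rpl37 was at −0.25 ± 0.13 and Rpl37rt at −0.23 ± 0.22, Rpl6 at −0.27 ± 0.11 and the pseudogene Rpl6l at −0.23 ± 0.41. The difference within each pair was not tested. Rps19bp1, which is no paralog, was at −0.05 ± 0.18, beside −0.29 ± 0.12 for Rps19, the protein it binds. Near-identical copies can share reads, so their values are uncertain. The 8 names outside the core set that were tested had a median of −0.16, and 1, Rps27l, was called.

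The 8 members with no adjusted p had mean counts from 3.77 to 26.8 in the authors' deposited table. They were the core genes Rpl23a and Rpl24, the related names Rpl36al, Rpl3l, Rpl39l and Rpl32l, and the pseudogenes Rps3a2 and Rps3a3. Rpl3l is known from heart and skeletal muscle and Rpl39l from testis. Their errors were large: Rpl24 was at 0.69 ± 1.14, Rpl39l at 1.57 ± 0.84 and Rpl32l at −0.51 ± 0.63. The partners Rpl36a (−0.40 ± 0.16), Rpl39 (−0.25 ± 0.14), Rpl32 (−0.31 ± 0.12) and Rps3a1 (−0.24 ± 0.11) were measured at far higher counts.

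For 3 core genes the pseudogene rows together had a higher count than the gene. Every ribosome needs uL23, the product of Rpl23a, yet the authors' deposited table gave Rpl23a a mean count of 3.77 and the pseudogene Rpl23a-ps3 one of 417. Rps10 had 62.5, against 593 summed over its -ps rows. Rpl17 had 688, with a log2 fold change of −0.37 ± 1.12, against 1414. These were the 3 of 56 core genes with -ps rows whose pseudogene rows together exceeded the gene. Rpl14 came next, with 1838 against 937 for Rpl14-ps1. Low counts were also found without this: Rpl24 had 8.15 and no -ps row, and Rpl13a had 174 against 3.25. The median over the 56 was 2.63% of the gene's count. How reads that match both a gene and its copies were counted was not given in the sources used here, and counts are not per length.

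**Figure D2:**
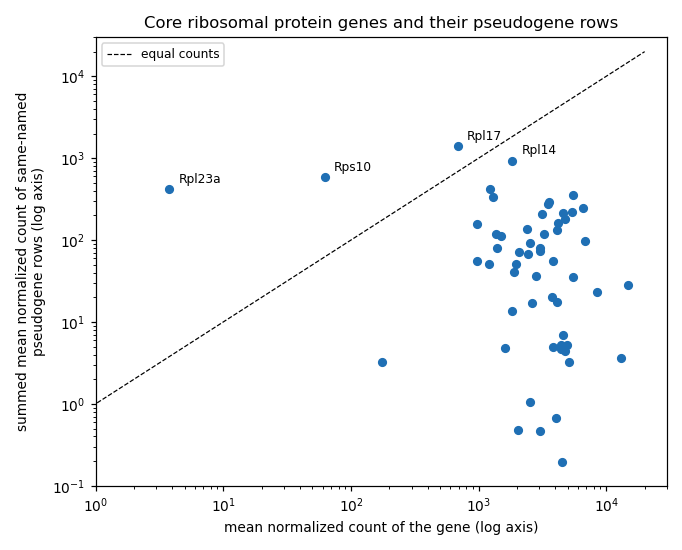
Mean normalized count of each of 56 core genes (x axis, log scale) against the summed mean count of its same-named pseudogene rows (y axis, log scale), from the authors' deposited table. The 3 genes above the dashed line of equal counts are Rpl23a, Rps10 and Rpl17, and the other 53 lie below it.

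The pseudogene rows had the same direction as the genes. Of the 218 -ps rows of core genes, 34 had an adjusted p in the authors' deposited table, with a median of −0.27, 29 below 0 and 0 called by their Wald test (1 at an unadjusted p under 0.05). The 20 tested core genes without any same-named pseudogene row were all below 0 as well, with a median of −0.23 and 1 called. The 55 tested core genes with such rows had a median of −0.27 and 2 called. Pseudogenes under other names were not counted.

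Among genes that work with the ribosome, the side opposite to Ythdf2 was also the more frequent, with medians nearer to 0. Of the ribosomal proteins with other names, Rack1, a scaffold on the small subunit, was at −0.37 ± 0.12 (adjusted p = 0.0555) and Fau at −0.10 ± 0.12 in the authors' deposited table. Fau encodes a ribosomal protein fused to a ubiquitin-like protein. Of 22 other TOP mRNAs, mostly translation factors, 20 were below 0 with a median of −0.15 and 0 passed. The elongation factors Eef2 and Eef1a1 were at −0.15 ± 0.11 and −0.06 ± 0.10, and the histone chaperone Nap1l1 at −0.43 ± 0.15 (adjusted p = 0.122). Of 41 ribosome biogenesis factors 37 were below 0 (median −0.16), and of 23 subunits and factors of RNA polymerases I and III 18 were (median −0.17). None of these lists had a call. Of all tested genes 0.557% were called on the negative side, so few calls there are expected in lists this short.

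The tested regulators of TOP mRNAs had a median near 0. Of 18 listed genes of the mTORC1 pathway and TOP control, 16 had an adjusted p, with a median of −0.01, 10 below 0 and none called in the authors' deposited table. The other 2, named after their values were seen, had few counts. Rps6kb2, an S6 kinase, had a mean count of 29.0 and a log2 fold change of 3.91 ± 0.77 (unadjusted p = 4.22e-07) in the authors' deposited table, and the mTOR inhibitor Deptor had 23.9 and −0.79 ± 0.68. Larp1 was at −0.01 ± 0.11, Mtor at 0.02 ± 0.13 and Myc, a transcription factor that drives ribosome production, at 0.08 ± 0.40. The proteins of the mitochondrial ribosome, encoded by a separate gene family, had a median of −0.08, with 60 of 75 below 0 and none called. In these last 5 lists, 0 genes were called on either side by the authors' Wald test, and at an unadjusted p under 0.05 the negative counts were 3, 2, 0, 1 and 3.

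**Figure D3:**
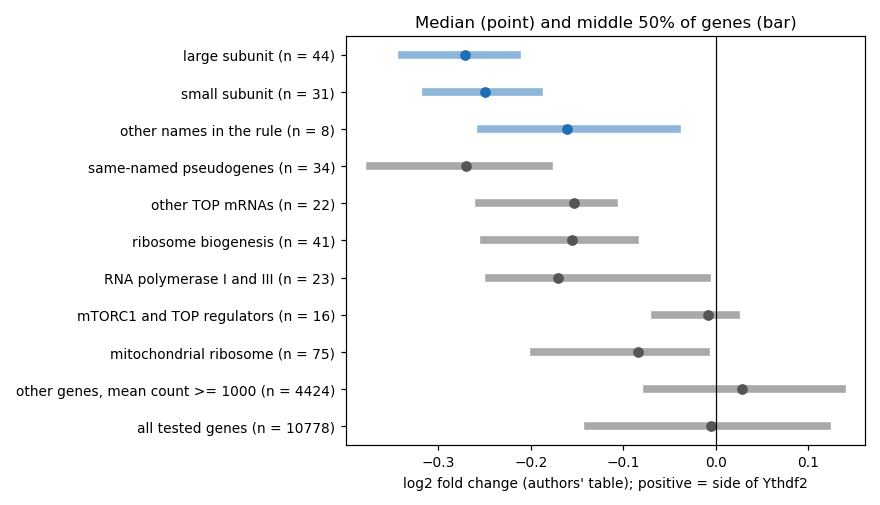
Median log2 fold change (point) and middle 50% of genes (bar) for the ribosomal protein groups (blue) and for other lists (grey), from the authors' deposited table. The large and small subunits lie at −0.27 and −0.25, the other TOP mRNAs at −0.15, the biogenesis factors at −0.16 and all tested genes at −0.01.

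Mitochondrial ribosomal RNA lay on the other side from the protein genes. The authors' deposited table put the mitochondrial ribosomal RNAs mt-Rnr1 and mt-Rnr2 at 0.50 ± 0.13 (adjusted p = 0.0114) and 0.59 ± 0.16 (adjusted p = 0.0178). Lars2, a mitochondrial tRNA synthetase gene that holds sequence like ribosomal RNA, was at 0.81 ± 0.11 (adjusted p = 3.46e-11). These 3 features, picked after their values were seen, took 1.08% of the summed mean counts, and the 91 members took 1.01%. The libraries were made from polyadenylated RNA, per the labels' protocols. Cytosolic ribosomal RNA was not analysed here. The part of ribosomal RNA in the members' values was not tested.

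Markers of other cells were mostly too low to be tested. The exceptions with a mean count of at least 1000, named after their values were seen, were the neutrophil marker Csf3r (8496, at 0.06 ± 0.13) and the B cell marker Blnk (3745, at 0.25 ± 0.13), and neither was called. Of 12 neutrophil markers 4 were tested and Mmp8 was called negative at −0.83 ± 0.19, and of 9 fibroblast markers 5 were tested and Col1a1 was called positive at 0.56 ± 0.17. T and NK cell, B cell, erythroid and dendritic cell lists had 1, 3, 1 and 0 tested genes and no call in the authors' deposited table. Of these markers, Cd3g, Ncr1, Klrb1c, Gzma and Hbb-bt had no value to analyse here. The macrophage markers took 1.503% of the summed mean counts, the neutrophil markers 0.0329% and the fibroblast markers 0.00543%. The part of cell makeup in the members' values was not tested, and in bulk RNA fewer cells of a type and less RNA per cell cannot be told apart.

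A smaller share of ribosomal protein genes than of other genes had an m6A peak. The WT m6A list gave a peak to 17 of the 83 tested members (20.5%), against 45.4% of all tested genes. Among other tested genes with a mean count of at least 1000 the share was 65.6%, and 56.0% where the gene also spans under 10 kb. With the tested genes cut into 10 equal classes of mean count, 20.7% of the 29 members in class 10, the most abundant, had a peak and 69.7% of the others did. In class 9 the shares were 23.1% of 26 members and 68.3% of the others. The list gives no level or p for a peak, so a weak and a strong peak look the same in it.

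**Figure D4:**
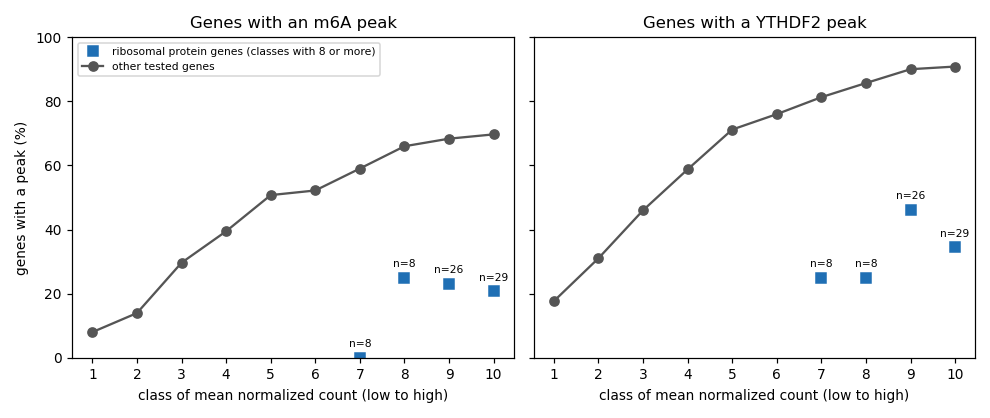
Share of genes with an m6A peak (left) and a YTHDF2 peak (right) in the WT lists (y axis, %) by class of mean normalized count (x axis, 10 classes of equal size, from low to high), for ribosomal protein genes (squares, classes with at least 8 members) and other tested genes (circles). In classes 9 and 10 the members sit at 23.1% and 20.7% for m6A and at 46.2% and 34.5% for YTHDF2, below the line of the other genes.

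The 22 m6A peaks of members were short and lay late in the gene, as most peaks of other genes did. Their median span was 112.5 bp, against 325 bp for peaks of other genes. Spans were not adjusted for gene span, whose median was 3175 bp in tested members and 22165 bp in all tested genes. The median midpoint lay at 85.9% of the gene in members and at 83.2% in other genes. The midpoint of 21 (95.5%) lay past the middle of the RefSeq gene, or past its end, against 75.9% of 9149 peaks of other genes. The exception was Rpl7, whose 50 bp peak (chr1:16103587-16103636) lay 26.2% of the way along the gene. Rps19, whose mutations are the most frequent known cause of Diamond-Blackfan anaemia, had 3 peaks, the last at chr7:24889672-24889806. Rpl14, Rps24 and Rps3a1 had 2 each. The other 13 had 1: Rpl7, Rpl11, Rpl18, Rpl22, Rpl23, Rpl26, Rpl28, Rpl29, Rpl36a, Rps4l, Rps6, Rps19bp1 and Rps23. The span of the Rpl26 peak, 2176 bp, ran well past the end of the gene.

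The share with a YTHDF2 peak was also smaller in the family. The YTHDF2 list named 28 of the 91 members, 27 of them tested (32.5%), against 64.5% of all tested genes. Other tested genes with a mean count of at least 1000 had a share of 86.6%, and 78.4% where they span under 10 kb. In class 10, the most abundant, 34.5% of members had a peak, against 90.8% of the others. Of the 20 tested core genes without a same-named pseudogene row 50% had a YTHDF2 peak, and of the 55 with such rows 29.1%. For m6A peaks these shares were 15% and 21.8%. The part of reads shared with pseudogenes in the peak lists was not tested. Every peak in that list (17843 of 17843) carries a name beginning with m6a, although the list is deposited as the YTHDF2 immunoprecipitation. Whether its peaks come from the m6A libraries instead was not tested.

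The members held 41 YTHDF2 peaks, and few of them sat in the 3′ UTR. By the transcripts the list names, 4 summits (9.76%) fell in a 3′ UTR, 18 (43.9%) within coding sequence, 19 (46.3%) within an intron and 0 in a 5′ UTR. For other genes the shares were 38.1%, 34.9%, 24.95% and 2.06%. Among core members 2 of 39 summits fell in a 3′ UTR (5.13%). How much 3′ UTR sequence members and other genes have was not compared, so these shares are not adjusted for it. The fold enrichment at the summit, the authors' own value, ranged from 1.55 to 5.54 with a median of 2.61, and peaks of other genes had a median of 3.01. In 37 of the 41 (90.2%) the peak overlapped both an exon and an intron, against 60.9% of peaks elsewhere. Summits lay past the middle in 30 of the 38 peaks inside a RefSeq gene (78.9%, against 84.6% for other genes).

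The highest fold enrichment was 5.54, at an intronic summit early in Rps15 (chr10:80292560-80292816), a small subunit protein. Rps19 followed at 4.18 (chr7:24889564-24889777) and Rplp2 at 3.91 (chr7:141450845-141451257), both with summits called intronic late in the gene. A peak listed for Rpl13a at 3.88 and one for Rpl24 at 3.72 lay outside the RefSeq gene and were also listed for Flt3l and Pcnp, so the gene they belong to is uncertain. Leaving out these and another such peak of Rpl13a, 27 members had a peak inside the gene. Rpl13a had 4 listed peaks and Rps27a, which encodes ubiquitin fused to a small subunit protein, had 3. In all 10 members had more than 1.

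Introns of some members house snoRNAs, which are processed from the spliced intron. Of the 91 members 30 contain a RefSeq snoRNA, and 13 of those 30 had a YTHDF2 peak inside the gene, against 14 of the 61 without one. All 30 are core genes, so the 61 include every name outside the core set, several of them with few counts. Among tested core genes alone, a YTHDF2 peak was listed for 13 of 29 hosts (44.8%) and 13 of 46 others (28.3%). This difference was not tested. Only 5 peaks, in Rpl13a, Rps3, Rpl7a and Rpl3, overlapped a snoRNA, and 0 summits lay inside one. In Rpl13a the 2 overlapped were Snord35a and Snord32a, and in Rps3 it was Snord15b. Core hosts and core genes without a snoRNA had like fold changes in the authors' deposited table, with medians of −0.28 (29 tested) and −0.25 (46 tested).

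**Figure D5:**
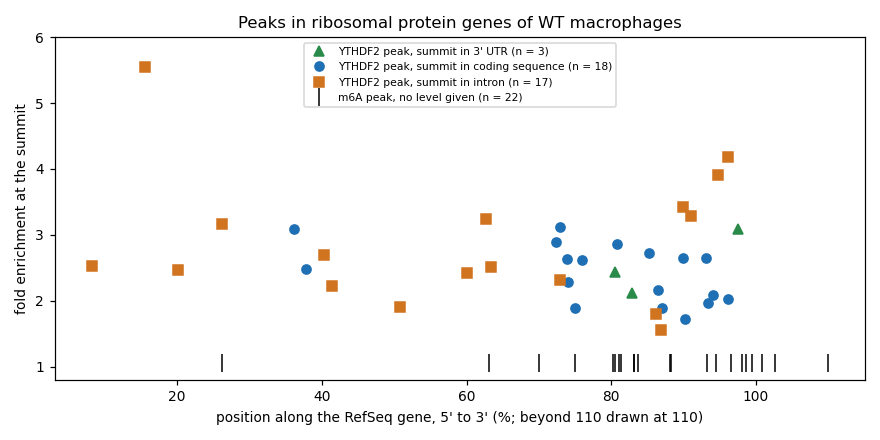
Fold enrichment at the summit (y axis) of the 38 YTHDF2 peaks inside members, by position along the RefSeq gene from 5′ to 3′ (x axis, %), with the midpoints of the 22 m6A peaks as ticks. The peak of Rps15 stands highest at 5.54, and 21 of the 22 ticks lie past the middle of the gene.

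Both kinds of peak were listed for 6 members, Rpl14, Rpl18, Rpl23, Rps3a1, Rps6 and Rps19, or 7.23% of those tested, against 35.8% of all tested genes. In 3 of the 6 the m6A and YTHDF2 peaks shared at least 1 bp. In Rps19 the overlap was 106 bp, or 78.5% of the m6A peak, in Rpl14 201 bp (14.7%) and in Rpl23 7 bp. No YTHDF2 summit lay inside an m6A peak. The log2 fold changes of these 3 in the authors' deposited table were −0.29 ± 0.12, −0.35 ± 0.14 and −0.20 ± 0.11, and none was called.

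Members with and without a peak had medians close to each other. The 17 with an m6A peak had a median of −0.24 in the authors' deposited table with 0 called by their Wald test. The 66 tested without one had a median of −0.26 with 4 called (6.06%). At an unadjusted p under 0.05, 10 (58.8%) and 34 (51.5%) were negative. The 27 tested members with a YTHDF2 peak had a median of −0.26 with 1 called (Rpl3, 3.70%), and the 56 without one had −0.26 with 3 called (5.36%). Of all tested genes 0.557% were called on that side. Calls this few cannot show whether members with and without a peak differ. Those with a pyrimidine run at the start (35 tested) had a median of −0.28 and those with a window and no run (27) −0.24. These differences were not tested. Of the called members named above, Rps27l and Rpsa had neither kind of peak, and Rpl3 had 2 YTHDF2 peaks, at chr15:80077924-80078198 and chr15:80081056-80081364, and no m6A peak.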

How the data were processed

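The members and gene lists were chosen with earlier results of these data known. The study's 3 deposited files were used, with 0 values per library. Per the file headers, the expression table holds DESeq2's result columns: a mean normalized count (a signal the authors averaged over libraries), the log2 fold change and its error as deposited by the authors, the Wald score the authors deposited, and p-values deposited by the authors. The adjusted p matched a Benjamini-Hochberg adjustment over 10778 genes with a mean count of at least 48.0. The other 16235 genes were not tested, and every call is the authors'. The design foresaw counts per library. As none were in the files used, no model was fitted here.

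The WT m6A list, named for exomePeak2, gives positions. The YTHDF2 list gives a fold ratio and −log10 p and q that the authors deposited. Each is 1 list for the group, made with replicates combined. How the YTHDF2 peaks were called was not given in the sources used here. HISAT2, HOMER, ChIPseeker and mm10 are in the submitters' processing notes.

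Symbols were joined directly or through RefSeq synonyms (Rps3a for Rps3a1), and coordinates are 1-based. An m6A peak takes its chromosome from the RefSeq gene of its symbol. Start windows come from RefSeq (GRCm38.p6). Genes named were all those called, above 0, at either extreme, next to the threshold, most abundant, paralogous, untested, with an m6A peak or with the highest YTHDF2 fold, plus Ythdf2, Lyz2 and set partners. A few of these are not reported here, though they stay in every count. The adjustment and the centred Wald test were tried on simulated fold changes, and the name rule on a few known names. The joins of peaks to genes were not tested in this way. Python 3.11.15, pandas 2.3.3 and scipy 1.17.1 were used. Filters, centring, membership, peak strength, summit position and overlap were varied.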

Additional observations from a re-analysis of the deposited data

How the results depend on the processing

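Of 35 alternatives, 28 kept the result, 7 moved it and 0 reversed it. The count of members called on the negative side was 4, against 1 with no filter on low counts, 1 at a change of at least 1.5-fold (Rpl3), 8 when fold changes were centred on the most abundant 25% of genes (whose median is 0.04), and 1 among core genes without a same-named pseudogene row, a choice made after seeing the data that leaves fewer genes. No alternative gave a call on the positive side, and these are among the 28 that kept the result. The median of −0.26 ran from −0.30 to −0.23 over its alternatives. Members with a YTHDF2 peak numbered 28, and 20 without summits in introns. They numbered 24 at a fold enrichment of at least 2, and 24 at a −log10 q of at least 5. These falls were also counted as keeping the result. Members with both kinds of peak numbered 6, and 3 without summits in introns. The m6A peaks that overlap a YTHDF2 peak numbered 3, against 1 when at least 50% of the m6A peak had to overlap and 0 when the summit had to lie inside it. The last 3 counts fell because each rule keeps fewer peaks. No paired analysis was possible because the files hold no value per library, and for the same reason no library could be left out, so how far 1 library decides a value is unknown. Depth is unknown, and the members with mean counts under 100 have errors too wide to show a change of the family's size.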
